A study of Rattus norvegicus with 18 samples.

Results

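The superior sinoatrial node (sSAN), the stretch of rat pacemaker tissue beside the opening of the superior vena cava, was compared with the working muscle of the right atrium (RA) across all genes. The comparison used the 4 sSAN and the 4 RA libraries among 18 bulk RNA libraries, chosen by their tissue labels. Each of 4 rats gave 1 library of either region, and libraries of the same rat share the ending of their title. All were healthy male Sprague Dawley rats, aged 59 days (rats 1 and 2) or 70 days (rats 3 and 4). The other libraries came from the inferior sinoatrial node (iSAN, n = 4) and left atrium (LA, n = 4) of the same rats and from the left ventricle of rats 3 and 4. The study located the nodes by optical mapping of other hearts and dissected the sequenced pieces by hand, so a piece labelled sSAN can hold node cells, atrial muscle, fat, nerve and vessel in proportions that differ between rats.

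The sinoatrial node starts the heartbeat. Its cells depolarize spontaneously, through hyperpolarization-activated HCN channels and through calcium cycling between the cell membrane and the sarcoplasmic reticulum. In mouse development the transcription factors Isl1, Shox2 and Tbx3 keep node cells apart from the working atrium, whose own program includes high-conductance connexins, sodium channels and atrial natriuretic peptide. The node is also densely innervated, lies in connective tissue, borders on epicardial fat and surrounds its own artery.

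Total counts were 19945216 to 24252103 per sSAN library and 18548014 to 19946678 per RA library. Levels are given as CPM, which are counts scaled for library size with TMM factors, in the order of rats 1 to 4, so that 1 CPM stands for about 20 counts. Calls were made at adjusted p values under 0.05 (edgeR quasi-likelihood test, Benjamini-Hochberg over all genes tested). Log2 changes are of sSAN over RA. The value after ± is an approximate standard error, the size of the change over the square root of the test's F statistic. Of 14038 genes tested, 1932 (13.8%) rose and 1191 (8.48%) fell in the sSAN. These shares are the background for the counts per gene list below. The rises were the larger changes. The median log2 fold change was 0.94 among the genes that rose, 916 of which (47.4%) changed over 2-fold, and -0.58 among those that fell, 165 of which (13.9%) did. All 4 rats had the direction of the call in 1900 of the 1932 and in 1184 of the 1191. Over all genes tested, the sSAN libraries lay above every RA library for 2156 (15.4%) and below for 1848 (13.2%). Among the called genes, 1757 of the 1932 and 1148 of the 1191 did not overlap, so lack of overlap is common to most called genes named below. At the stringent threshold, adjusted p values under 0.01 and changes over 3-fold, 401 genes (2.86%) were higher and 8 (0.057%) lower. These counts depended on the libraries used. Without RA replicate 2 there were 1179 higher genes, and without RA replicates 1 to 4 in turn there were 691, 642, 702 and 681 lower genes. The stringent counts fell to 263 higher genes without sSAN replicate 1 and to 125 to 152 without an RA library, while the stringent lower count was 18 without sSAN replicate 3 and 1 to 3 without an RA library.

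The sSAN pieces were mixed and varied more than the RA pieces. Summed CPM over 18 sarcomere genes tested, a measure of muscle, came to 31186, 22415, 42039 and 42407 in sSAN libraries and 54981, 51210.0, 56521 and 56292 in RA libraries, and the sSAN piece of rat 2 was the lowest. Summed CPM over the white adipocyte list, of whose 13 tested members 11 rose, ran from 3185 to 10860.0 in the sSAN and from 1183 to 1428 in the RA, where Adipoq, the fat-cell hormone adiponectin, was at 0 in rats 3 and 4. The Schwann cell and glia list summed to 238 to 1006 CPM and 122 to 138 CPM. Transcripts of the 13 protein genes of the mitochondrial genome took 27.8%, 39.9%, 31.2% and 23.8% of sSAN counts against 17.1%, 16.2%, 18.6% and 17.4% of RA counts, a difference of 13.4 points (permutation test, exact and two-sided, p = 0.0286, which no comparison of 4 with 4 can undercut). With the libraries paired by rat, the share was higher in the sSAN of 4 of 4 rats, and the exact permutation test of the 4 within-rat differences gave p = 0.125, the smallest that 4 pairs allow. Without any 1 library the difference was 10.3 to 15.6 points (p = 0.0571 by the same exact permutation test, again its smallest possible value). In bulk tissue, fewer cells of a type and less RNA per cell cannot be told apart. The part of these mixtures in each result below was not tested, and their values stand here for all muscle, fat and nerve groups.

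**Figure D1:**
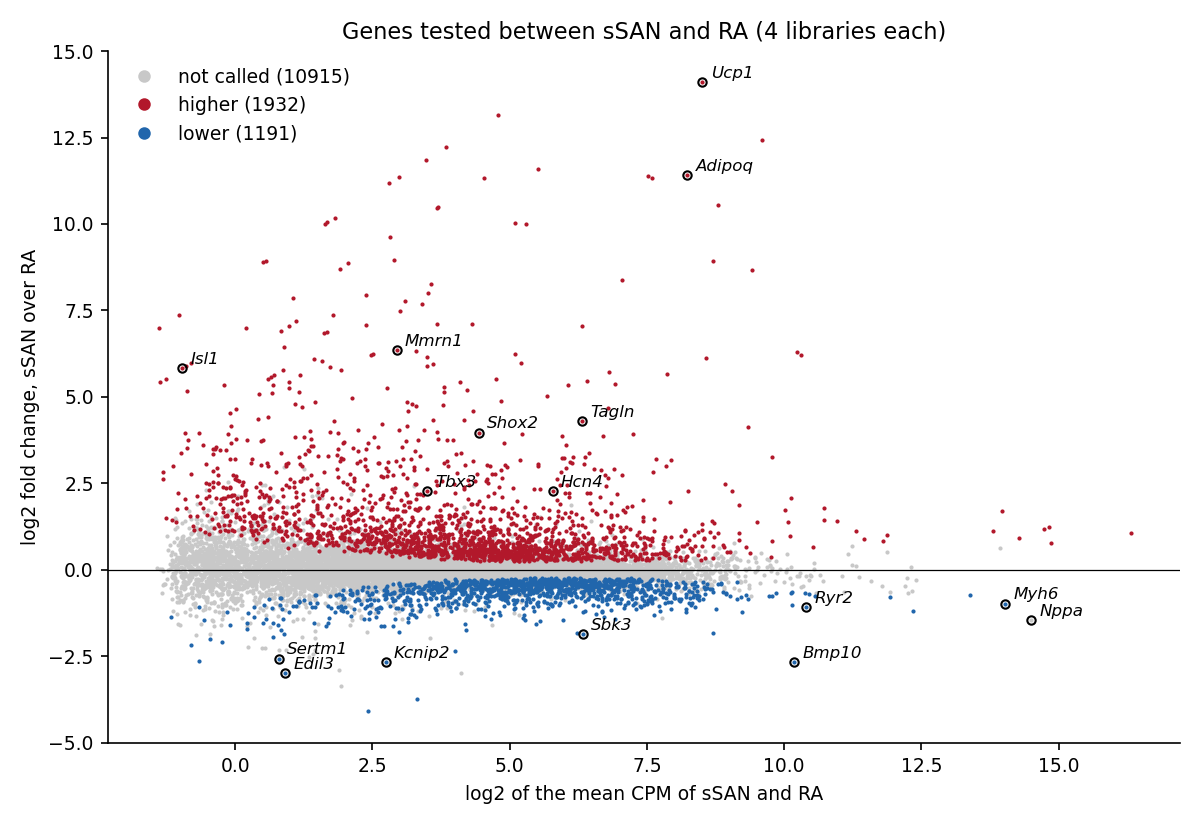
Each point is 1 of 14038 genes, with the log2 of its mean CPM over the sSAN and RA libraries on the horizontal axis and the log2 fold change of sSAN over RA on the vertical axis. The 1932 genes called higher reach 14.10 on the log2 scale (Ucp1), while the 1191 called lower reach -4.10.

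Of the HCN pacemaker channels described here, Hcn4 rose and Hcn2 did not pass the test. Hcn4 (ENSRNOG00000009450, chromosome 8, 63600663 to 63639654 in the coordinates of the deposited table, whose assembly name is not given in the sources used here) encodes the main channel of the funny current. It was at 49.4, 55.3, 128 and 133 CPM in the sSAN and 21.4, 19.2, 17.4 and 17.4 CPM in the RA (log2 change 2.29 ± 0.34, adjusted p = 0.00333). The groups did not overlap, and the sSAN pieces of the 70-day rats held over 100 CPM while those of the 59-day rats held under 60 CPM. Hcn2 was at 12.2, 11.4, 14.8 and 15.8 CPM and 11.8, 8.05, 10.9 and 12.4 CPM (log2 change 0.34 ± 0.16, adjusted p = 0.161), overlapping ranges. Hcn3 had 0 to 0.0480 CPM in all 8 libraries and was not tested. On the length-scaled FPKM of the deposited table, Hcn4 was at 15.9 ± 8.66 FPKM (SD, n = 4) and Hcn2 at 5.08 ± 1.16 FPKM within the sSAN, and in the RA Hcn2 (4.53 ± 0.716) and Hcn4 (3.66 ± 0.423) lay within 1 FPKM of each other.

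**Figure D2:**
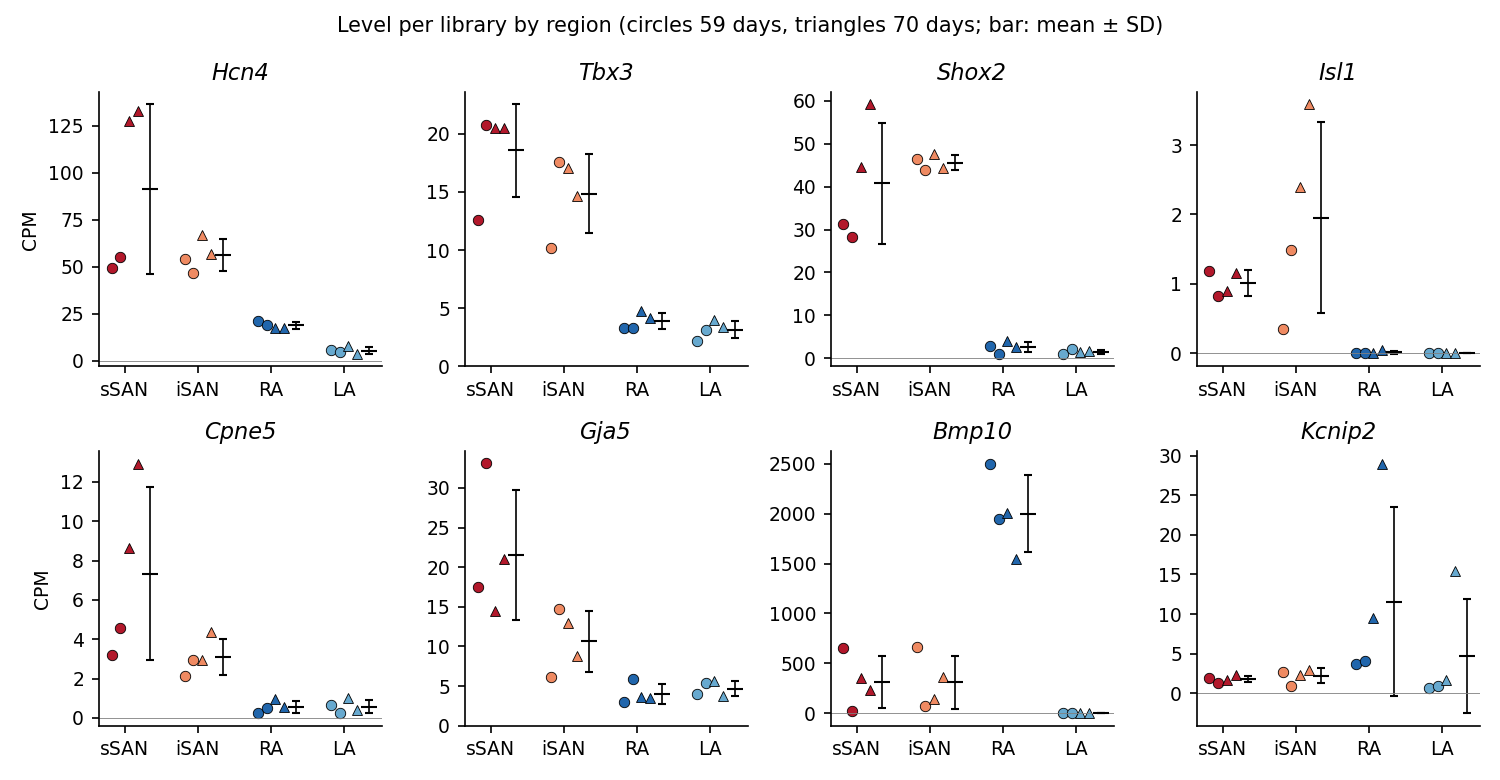
Each panel shows 1 gene, with its CPM on a linear vertical axis from 0 in the sSAN, iSAN, RA and LA libraries; circles are 59-day rats, triangles 70-day rats, and bars give the mean ± SD (n = 4). Hcn4, Tbx3, Shox2, Isl1, Cpne5 and Gja5 lie above the RA in all 4 sSAN libraries and Bmp10 and Kcnip2 below it.

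The node transcription factors Isl1, Shox2 and Tbx3 rose, Tbx5 fell, and Tbx2 and Tbx18 did not pass the test. Shox2 (ENSRNOG00000012478, chromosome 2, 164118191 to 164126783), a homeobox factor that holds back the atrial program, was at 31.3, 28.2, 44.5 and 59.1 CPM in the sSAN and 2.77, 1.06, 3.95 and 2.71 CPM in the RA (log2 change 3.97 ± 0.38, adjusted p = 0.000728). Tbx3 (ENSRNOG00000008706, chromosome 12, 42480560 to 42492526), a repressor of working-muscle genes, was at 12.6, 20.8, 20.5 and 20.5 CPM and 3.34, 3.33, 4.73 and 4.14 CPM (log2 change 2.27 ± 0.20, adjusted p = 0.000466). Every sSAN library lay well above every RA library for these factors, and the fold changes of the 59-day and 70-day rats were close, 3.96 and 3.95 for Shox2 and 2.33 and 2.200 for Tbx3. Isl1 (ENSRNOG00000012556, chromosome 2, 48487736 to 48501436), a LIM-homeobox factor of node and cardiac progenitors, was low in absolute terms. It had 1.19, 0.822, 0.892 and 1.15 CPM in the sSAN, 84 counts in all, and a single library of the RA held 1 count, a count ratio of 85.9 (95% interval 14.997 to 3432 for counting error alone, adjusted p = 0.000993). Tbx5, which is active in atrium and node alike, was at 124, 83.6, 154 and 152 CPM against 254, 231, 234 and 238 CPM (log2 change -0.88 ± 0.17, adjusted p = 0.00793). Tbx18, a factor of the node head in mouse, was at 14.6, 19.3, 19.7 and 25.99 CPM and 19.6, 19.8, 23.3 and 28.5 CPM (log2 change -0.19 ± 0.18, adjusted p = 0.508). Tbx2 was at 2.75 to 5.65 CPM in the sSAN and 4.29 to 5.35 CPM in the RA (log2 change -0.04 ± 0.23, adjusted p = 0.916).

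The promoters of 2 genes are printed because these stand for either direction of the comparison, Isl1 as a node transcription factor with 1 count in the RA and Bmp10 as an abundant RA gene with a large fall. Each is 300 bases, 250 before and 50 after the gene's start, 5′ to 3′, from RefSeq on build GRCr8 (a different build from the coordinates above), with capitals marking AGATAA, a motif of GATA factors. Isl1 (chr2:49823393-49823692, minus strand) holds 1 match and Bmp10 (chr4:121429125-121429424, plus strand) holds 2. The start is the annotated one, and in both windows an ATG lies at or just after it. Transcription may therefore begin further upstream, and the windows may hold untranslated sequence.
Isl1: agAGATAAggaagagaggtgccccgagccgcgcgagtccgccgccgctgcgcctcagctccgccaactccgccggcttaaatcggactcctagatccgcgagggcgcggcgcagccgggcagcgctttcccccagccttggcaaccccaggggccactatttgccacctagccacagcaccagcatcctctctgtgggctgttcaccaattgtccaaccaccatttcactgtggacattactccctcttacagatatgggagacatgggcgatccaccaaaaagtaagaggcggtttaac
Bmp10: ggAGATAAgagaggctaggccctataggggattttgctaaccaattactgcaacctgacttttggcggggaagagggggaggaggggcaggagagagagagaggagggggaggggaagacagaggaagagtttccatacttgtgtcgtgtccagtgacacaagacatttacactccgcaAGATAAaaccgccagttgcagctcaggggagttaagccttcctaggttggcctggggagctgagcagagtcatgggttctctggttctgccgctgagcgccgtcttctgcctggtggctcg
AGATAA was found on either strand in 11.6% of 33469 promoters of the same length. Of the other motifs searched on both strands, AGGTGT of T-box factors (13.6% of promoters) and AAGTG of NKX2-5 (46.2%) were in neither window. Gata6, a GATA factor, fell in the sSAN, a call lost without sSAN replicate 1 or any RA replicate, as given with the chamber factors. Whether any GATA factor acts on either gene was not tested.

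Genes used to mark node cells in single-cell work did not move together. Cpne5, a calcium-dependent membrane-binding protein, was at 3.18, 4.58, 8.63 and 12.9 CPM in the sSAN and 0.239, 0.482, 0.964 and 0.571 CPM in the RA (log2 change 3.70 ± 0.54, adjusted p = 0.00271). Smoc2, a matrix protein that binds calcium, was at 25.3, 30.1, 23.6 and 35.99 CPM against 5.06, 3.95, 4.97 and 2.71 CPM (log2 change 2.79 ± 0.22, adjusted p = 0.000285). Ntm, a neural cell adhesion protein, rose from a lower level (2.30 ± 0.36, adjusted p = 0.00326). These 3 rose in every rat. Rgs6, which shortens signalling from muscarinic receptors, went the other way, with 130.5, 60.7, 145 and 147 CPM in the sSAN and 239.8, 258, 228 and 245 CPM in the RA (log2 change -0.99 ± 0.24, adjusted p = 0.019; without RA replicate 2, adjusted p = 0.0534). Vsnl1, a neuronal calcium sensor, was at 41.2, 41.4, 69.9 and 76.8 CPM and 57.2, 53.4, 57.6 and 55.8 CPM (log2 change 0.04 ± 0.20, adjusted p = 0.9), below the RA in both 59-day rats and above it in both 70-day rats. Igfbp5 (-0.33 ± 0.12, adjusted p = 0.0833) and Bmp4 (0.63 ± 0.21, adjusted p = 0.0596) did not pass the test, although with replicate as a block Bmp4 did (adjusted p = 0.0225).

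Bmp10 had, with Kcnip2, the largest fall among the genes of the lists. It encodes a growth factor of the right atrium and trabecular muscle, and it was at 649.5, 21.3, 353 and 229 CPM in the sSAN and 2500.0, 1949, 2005 and 1550.1 CPM in the RA (log2 change -2.66 ± 0.78, adjusted p = 0.0415). The sSAN piece of rat 2 held the least, below 25 CPM, and that of rat 1 the most. The call was lost without sSAN replicate 3 or 4 or any RA replicate (adjusted p 0.0689 to 0.0856) and with replicate as a block (adjusted p = 0.0622), while the groups did not overlap and all 4 rats showed the fall. In the LA Bmp10 was at 0.233 ± 0.231 CPM (SD, n = 4), so the sSAN lay between the right and the left atrium.

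Of 14 chamber transcription factors tested, 3 rose, Prdm16 and Hey2 among them, and 5 fell. Tbx20, which maintains adult heart muscle, was at 69.5, 39.8, 54.2 and 71.7 CPM and 150.2, 172, 134 and 153 CPM (log2 change -1.36 ± 0.18, adjusted p = 0.00187). Mef2a, a muscle gene activator, was at 110.2, 101.2, 105 and 100.8 CPM against 179.6, 190.4, 174 and 172 CPM (log2 change -0.77 ± 0.08, adjusted p = 0.000697). Both fell in every rat and under each library left out. Irx5 (log2 fold change -1.95 ± 0.47), Gata6 (-0.64 ± 0.18) and Mef2c (-0.48 ± 0.13) fell as well, at adjusted p of 0.0174, 0.0342 and 0.0303. Nkx2-5, the core cardiac homeobox factor, was at 56.3, 24.4, 90.7 and 72.98 CPM against 104, 98.7, 103 and 102 CPM (log2 change -0.73 ± 0.32, adjusted p = 0.143), below the RA in each library, and did not pass. Prdm16, a factor of brown fat and ventricular muscle, was at 11.8, 14.8, 5.95 and 4.56 CPM against 0.908, 1.69, 1.40 and 1.09 CPM (log2 change 2.88 ± 0.41, adjusted p = 0.00246). Without sSAN replicate 1 or an RA replicate the count of fallen factors was 2 or 3 of 14 (Irx5 was lost without RA replicate 2 or 4, adjusted p 0.0503 to 0.0505, and Gata6 and Mef2c without sSAN replicate 1 or any RA replicate, adjusted p 0.0612 to 0.0865 and 0.0606 to 0.0783).

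Genes of working atrial muscle were lower, by amounts that differed widely between them. Of 11 tested, 6 fell and 1 rose. Fgf12, which modulates sodium channels, was at 39.9, 28.01, 43.1 and 43.8 CPM and 64.8, 66.3, 71.2 and 61.7 CPM (log2 change -0.76 ± 0.13, adjusted p = 0.00553). Pam, the amidating enzyme stored in atrial granules, was at 3474, 1499, 4293 and 3368 CPM and 7010.1, 6669.7, 8843 and 6422 CPM (log2 change -1.18 ± 0.29, adjusted p = 0.0192). Nppa, atrial natriuretic peptide, was at 12859, 2722, 18488 and 15004 CPM in the sSAN and 35846, 31148, 35631 and 33340.0 CPM in the RA, with no overlap, but just missed the threshold (log2 change -1.46 ± 0.47, adjusted p = 0.0526) and passed it with replicate as a block (adjusted p = 0.039). Myl7 (-0.67 ± 0.29, adjusted p = 0.136), Myl4 (-0.63 ± 0.27, 0.132) and Sln (-0.66 ± 0.30, 0.147), atrial light chains and the calcium pump inhibitor sarcolipin, had lower means and did not pass. For each of these the sSAN pieces of the 59-day rats were lower than those of the 70-day rats. Without RA replicate 1, 2 or 4 the count of fallen genes was 3, and without RA replicate 3 it was 2 (Pam was then at adjusted p = 0.0562).

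Sarcomere genes fell in part, 7 of 18 with 0 rising (median log2 fold change -0.52 over the list, 0.02 over all genes). Myh6, the fast cardiac myosin, was at 11251, 6996, 12716 and 13659 CPM against 21555, 21244, 21933 and 23891 CPM (log2 change -0.98 ± 0.22, adjusted p = 0.0147). Outside this list, Neb, the thin-filament ruler nebulin, fell further, from 167, 184, 172 and 219.8 CPM in the RA to 87.6, 60.3, 87.02 and 104 CPM (log2 change -1.12 ± 0.16, adjusted p = 0.00245). Tnni3, cardiac troponin I, was at 1902, 1551, 3195 and 3119 CPM and 2918, 2604, 2889 and 2990.3 CPM (log2 change -0.21 ± 0.23, adjusted p = 0.554), higher than the RA in both 70-day rats and lower in both 59-day rats. The count was 4 of 18 without sSAN replicate 1 or without RA replicate 3 or 4. Against this direction, and also outside the list, Myl2, the ventricular regulatory light chain, rose from 0.239, 0.0964, 0.386 and 0 CPM in the RA to 2.75, 1.94, 6.10 and 10.4 CPM in the sSAN (log2 change 4.85 ± 0.79, adjusted p = 0.00427), higher in the older rats.

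Calcium channel genes were lower in the sSAN pieces than in the RA, as were sarcomere and intercalated disc genes. Of 10 calcium channel genes, 7 fell and 0 rose. In the 59-day rats alone 3 fell, and against the LA 3 were lower and 1 was higher. Cacna1c, the L-type channel of atrial and ventricular contraction, was at 58.3, 46.3, 53.6 and 59.3 CPM in the sSAN and 91.4, 106, 83.7 and 100.03 CPM in the RA (log2 change -0.80 ± 0.11, adjusted p = 0.0021). Cacna1d, the L-type channel that opens at more negative voltage and serves pacemaking in mouse, was at 18.6, 8.46, 17.01 and 16.1 CPM and 38.6, 37.8, 41.4 and 28.3 CPM (log2 change -1.26 ± 0.23, adjusted p = 0.00583). Both fell in every rat with no overlap. Cacna2d1, an auxiliary subunit, fell from 63.3, 67.2, 63.4 and 65.4 CPM to 44.7, 27.1, 27.3 and 36.2 CPM (log2 change -0.92 ± 0.16, adjusted p = 0.00436). The T-type channels Cacna1g (-0.97 ± 0.24, adjusted p = 0.0204) and Cacna1h (-1.20 ± 0.36, 0.0473) fell too, but Cacna1g was lost without RA replicate 1 or 2 (adjusted p 0.0506 to 0.0602) and with replicate as a block (0.0563), and Cacna1h without sSAN replicate 1 or 4 or any RA replicate (0.0641 to 0.0973). The count of fallen channels was 3 without RA replicate 1 and 4 without RA replicate 3.

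Calcium cycling genes were lower as well, 6 of 11, and 1 rose. Ryr2, the calcium release channel of the sarcoplasmic reticulum, was at 1009, 735, 777 and 950.1 CPM in the sSAN against 1755, 1968, 1727 and 1901 CPM in the RA (log2 change -1.07 ± 0.14, adjusted p = 0.00171). Slc8a1, the sodium-calcium exchanger, was at 187, 124, 149 and 209.7 CPM against 331, 326, 322 and 325 CPM (log2 change -0.95 ± 0.15, adjusted p = 0.00363). Their falls were close in the 59-day and 70-day rats (-1.08 and -1.08 for Ryr2). Atp2a2, the calcium pump, had a smaller fall (-0.73 ± 0.20, adjusted p = 0.0314). Pln, the regulator of that pump, was at 1008, 809, 1589.7 and 1586 CPM and 1421, 1253, 1653 and 1417 CPM (log2 change -0.19 ± 0.22, adjusted p = 0.58), and Casq2, the calcium store protein, was at 693, 587, 998 and 944 CPM and 1012, 997, 1131 and 944 CPM (log2 change -0.33 ± 0.17, adjusted p = 0.204). Neither passed the test, and the ranges overlapped. The count of fallen genes was 3 without sSAN replicate 1 or any RA replicate, Atp2a2 being among those lost (adjusted p 0.0705 to 0.0819).

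Potassium channels of resting and repolarizing currents fell, 9 of 17, and 2 rose. Kcnj3 and Kcnj5 form the channel that acetylcholine opens through its muscarinic receptor. Kcnj3 was at 152, 79.2, 139 and 147 CPM against 277, 289, 301 and 319.6 CPM (log2 change -1.18 ± 0.18, adjusted p = 0.00329) and Kcnj5 fell by a like amount (-0.96 ± 0.22, adjusted p = 0.0143). Kcnj2, of the inward rectifier that holds working muscle at rest, was at 7.88, 4.29, 6.84 and 7.59 CPM in the sSAN and 11.04, 14.9, 14.2 and 15.8 CPM in the RA (log2 change -1.06 ± 0.20, adjusted p = 0.00671). Kcnd3, of the transient outward current, was at 24.6, 19.1, 17.9 and 23.3 CPM and 38.1, 42.7, 42.7 and 34.01 CPM (log2 change -0.88 ± 0.13, adjusted p = 0.0025). These 4 fell in every rat. Kcnip2, the subunit that partners Kcnd3, varied in the RA rather than in the sSAN, with 1.91, 1.29, 1.74 and 2.26 CPM against 3.68, 4.10, 9.55 and 28.97 CPM (log2 change -2.66 ± 0.68, adjusted p = 0.0257; without sSAN replicate 1, 2 or 3, 0.0547 to 0.0631). Kcnk1, a two-pore leak channel, rose from 0.334, 0.0482, 0.434 and 0.523 CPM to 2.25, 3.70, 1.83 and 3.03 CPM (log2 change 2.997 ± 0.49, adjusted p = 0.00387). Kcna5, of the ultra-rapid delayed rectifier, was the other that rose (1.05 ± 0.30, 0.0333), and its call was lost without sSAN replicate 1, 2 or 4 or RA replicate 3 or 4 (0.057 to 0.0884), which except for sSAN replicate 4 took the count of risen channels to 1.

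Sodium channels and connexins changed by subunit. Scn4b, an auxiliary sodium channel subunit, rose from 5.21, 7.47, 4.53 and 10.1 CPM to 12.8, 16.1, 19.4 and 30.9 CPM (log2 change 1.55 ± 0.33, adjusted p = 0.0119), and Scn3a, a mainly neuronal channel, rose from a level under 1 CPM (2.19 ± 0.51, 0.0153). Of 9 sodium channel genes tested 2 rose and 1 fell (0 fell without RA replicate 2 or 4), beside 13.8% and 8.48% of all genes. Gja1, connexin 43 of working muscle, was at 387, 352, 406 and 379 CPM against 441, 503, 538 and 566 CPM (log2 change -0.41 ± 0.11, adjusted p = 0.0227; without RA replicate 2, 3 or 4, 0.0579 to 0.0702, which left 0 fallen connexins). Gja5, connexin 40, found in atrial muscle and in arterial endothelium, was at 17.5, 33.1, 14.4 and 20.997 CPM in the sSAN and 2.96, 5.83, 3.66 and 3.47 CPM in the RA (log2 change 2.44 ± 0.30, adjusted p = 0.00161). Gjd3, the low-conductance connexin known from the mouse node, rose from 1.15, 1.35, 0.868 and 0.761 CPM to 2.08, 2.47, 3.57 and 4.52 CPM (log2 change 1.62 ± 0.32, adjusted p = 0.00793). Gjc1, connexin 45, was at 15.8, 16.7, 17.3 and 16.05 CPM and 17.2, 15.8, 20.5 and 19.9 CPM (log2 change -0.15 ± 0.11, adjusted p = 0.362). So 2 connexins rose, 1 fell and 2 did not pass among 5 tested.

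Genes of the intercalated disc, the junction between working muscle cells, fell in 7 of 9 cases with 0 rising. Dsp, the desmosome protein desmoplakin, was at 469.6, 344, 529 and 516 CPM in the sSAN and 808, 812, 877 and 842 CPM in the RA (log2 change -0.83 ± 0.14, adjusted p = 0.00436). Cdh2, N-cadherin, was at 121, 83.5, 165 and 152 CPM against 228, 266, 283 and 239 CPM (log2 change -0.95 ± 0.19, adjusted p = 0.00893). Ank3, ankyrin-G, which anchors sodium channels, was at 80.8, 65.2, 86.8 and 97.7 CPM against 136, 145, 137 and 136 CPM (log2 change -0.73 ± 0.12, adjusted p = 0.00353). The 3 groups did not overlap. Tjp1, a scaffold also present in endothelium, was level, with 163 ± 10.5 CPM and 162 ± 7.26 CPM (SD, n = 4; log2 change 0.02 ± 0.08, adjusted p = 0.915).

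**Figure D3:**
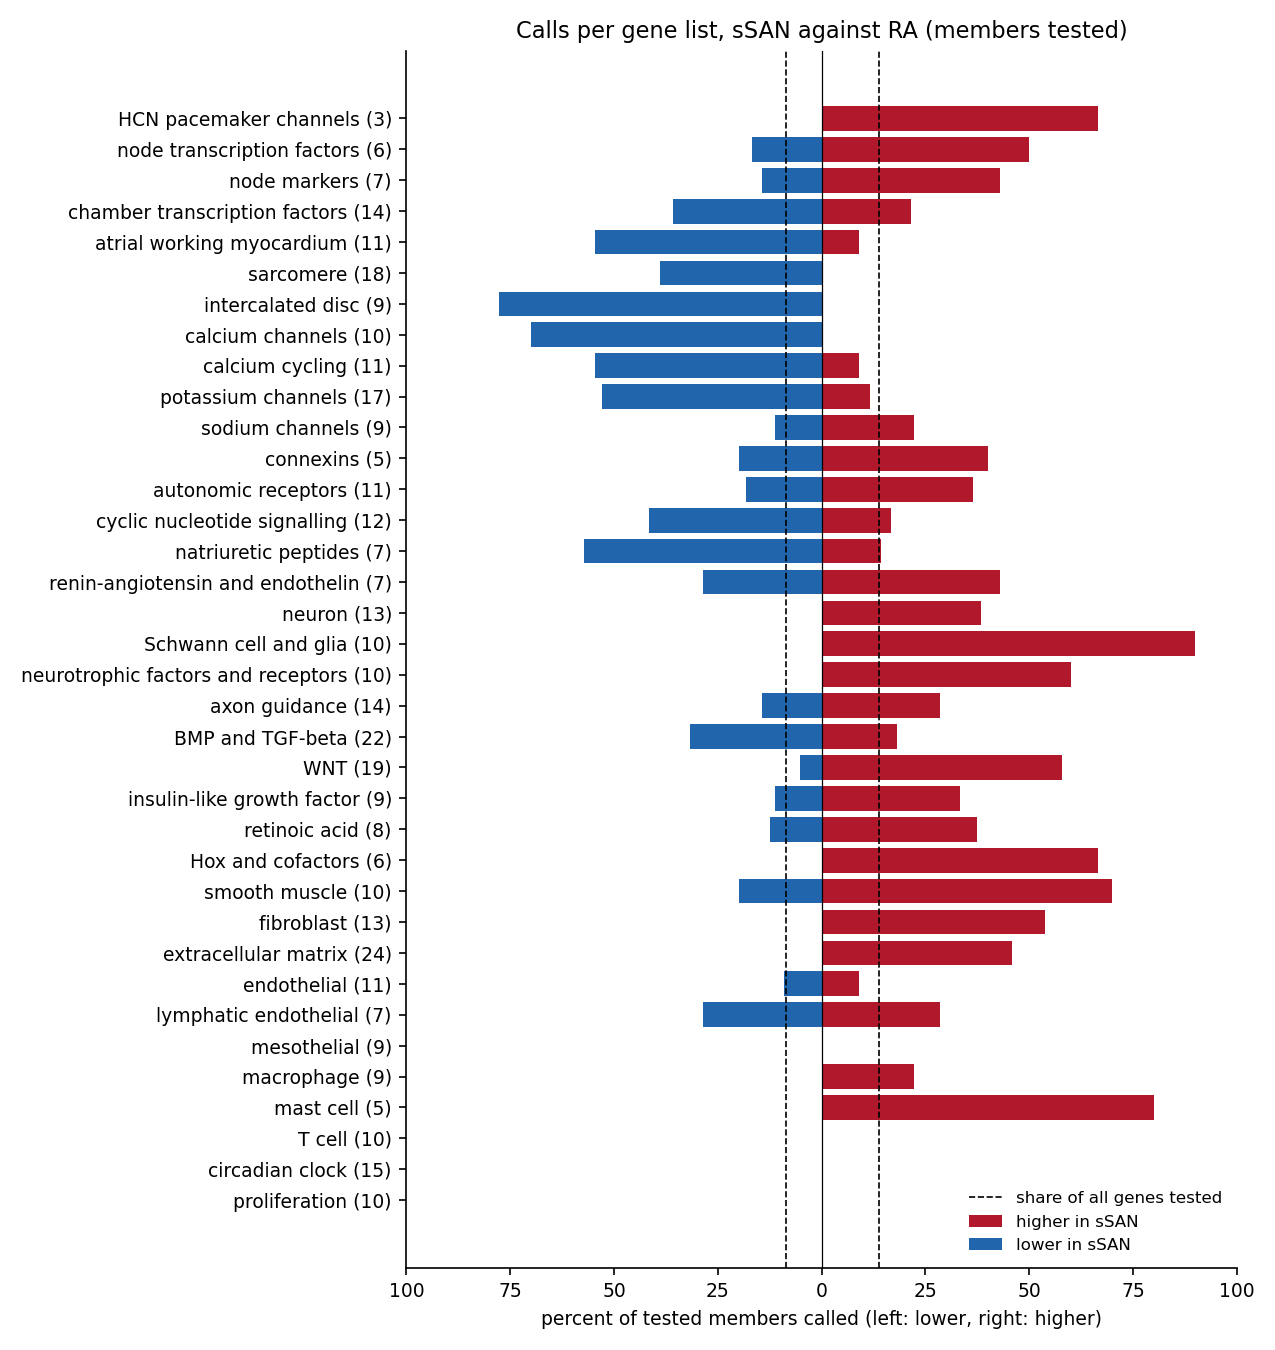
Bars give, for 36 gene lists, the percent of tested members called higher (right, red) or lower (left, blue) in the sSAN against the RA, with the number tested in parentheses; dashed lines mark the shares over all genes, 13.8% higher and 8.48% lower. Muscle lists lean left, and glia, mast cell and smooth muscle lists lean right.

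The 8 genes past the stringent threshold in the lower direction were Edil3, Sertm1, AABR07040095.1, Sbk3, Hmcn1, Bmp5, Bcl11a and Art4. Edil3, an integrin-binding matrix protein, was at 0.297, 0.0587, 0.496 and 0.769 CPM in the sSAN and 3.20, 4.82, 2.22 and 3.19 CPM in the RA (log2 change -2.998 ± 0.50, adjusted p = 0.00436). Hmcn1, the matrix protein hemicentin-1, was at 28.4, 20.1, 45.6 and 35.3 CPM against 113, 148, 84.2 and 121 CPM (log2 change -1.84 ± 0.25, adjusted p = 0.00245). Sbk3, a protein kinase, was at 39.3, 15.3, 35.5 and 47.9 CPM against 109, 165, 90.9 and 139.9 CPM (log2 change -1.86 ± 0.33, adjusted p = 0.00651). The sSAN piece of rat 2 was the lowest of the 8 libraries for each of these 3. Bmp5, a growth factor, fell evenly, from 9.17, 14.5, 14.2 and 11.3 CPM to 4.07, 2.35, 4.02 and 3.46 CPM (log2 change -1.80 ± 0.21, adjusted p = 0.00145), and Bcl11a, a zinc-finger repressor, from 4.73, 6.07, 4.48 and 3.81 CPM to 1.23, 1.64, 1.04 and 2.16 CPM (log2 change -1.64 ± 0.27, adjusted p = 0.00387). Sertm1 (-2.57), AABR07040095.1 (-2.10) and Art4 (-1.62) had fold changes in the same range, at adjusted p of 0.00414, 0.00703 and 0.00427. All 8 kept an adjusted p under 0.05 with any 1 library left out.

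Autonomic receptors split by kind. Chrm2, the muscarinic receptor through which the vagus slows the heart, was at 113, 83.8, 89.5 and 132 CPM in the sSAN and 191, 222, 202 and 209 CPM in the RA (log2 change -0.96 ± 0.14, adjusted p = 0.00278). Adrb1, the main cardiac adrenergic receptor, was at 25.8, 20.4, 24.6 and 25.03 CPM and 26.1, 22.6, 31.7 and 37.9 CPM (log2 change -0.29 ± 0.16, adjusted p = 0.217). Rgs4, which dampens muscarinic signalling in the mouse node, rose from 17.3, 19.3, 19.1 and 15.1 CPM to 22.96, 41.1, 29.9 and 27.6 CPM (log2 change 0.79 ± 0.17, adjusted p = 0.0128). Of 11 genes tested 4 rose and 2 fell (Chrm2 and Rgs6). Adrb3, the adrenergic receptor of fat, had 35.8, 47.4, 12.8 and 18.5 CPM and 0 counts in the 4 RA libraries, at least 783-fold higher (floor of 3 counts over the group). Chrnb4, a nicotinic subunit of autonomic ganglia, had 6.40, 3.35, 1.04 and 0.625 CPM and 0 counts in the RA, at least 82.5-fold higher, and was higher in the 59-day rats. Adra1d, an alpha adrenergic receptor, was at 14.6, 16.4, 7.34 and 5.48 CPM against 0.669, 0.868, 1.88 and 3.33 CPM (log2 change 2.71 ± 0.55, adjusted p = 0.0106), and with replicate as a block its adjusted p was 0.0592. The count of fallen genes was 1 without RA replicate 2, when Rgs6 was at adjusted p = 0.0534.

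Downstream of these receptors, 2 of 12 cyclic nucleotide genes rose and 5 fell, beside 13.8% and 8.48% of all genes. Adcy1, an adenylyl cyclase stimulated by calcium and expressed in rabbit and guinea pig node, was at 5.64, 8.81, 6.15 and 5.96 CPM in the sSAN and 1.91, 2.02, 1.01 and 1.66 CPM in the RA (log2 change 2.01 ± 0.25, adjusted p = 0.0016). The phosphodiesterases Pde3a (66.2, 50.8, 46.8 and 54.6 CPM against 82.9, 99.4, 94.6 and 93.1 CPM, log2 change -0.75 ± 0.12, adjusted p = 0.00329) and Pde4b (-0.79 ± 0.14, 0.00493) fell. Pde5a, which degrades cyclic GMP and is abundant in smooth muscle, rose (0.97 ± 0.21, 0.0117). The fallen count was 3 without RA replicate 1 or 3.

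The natriuretic peptide pathway was lower at brain natriuretic peptide, at the processing enzymes Corin and Pam and at the clearance receptor, and higher at a signalling receptor. Corin, the protease that activates atrial natriuretic peptide, was at 199.9, 98.9, 191 and 210.2 CPM against 398, 388, 449 and 426 CPM (log2 change -1.24 ± 0.21, adjusted p = 0.00456). Npr3, the clearance receptor, was at 105, 101.3, 123 and 92.7 CPM against 207, 244, 176 and 195 CPM (log2 change -0.95 ± 0.12, adjusted p = 0.00187), while Npr1, the guanylyl cyclase receptor, rose from 29.2, 27.1, 22.8 and 26.4 CPM to 37.5, 42.9, 36.8 and 36.3 CPM (log2 change 0.55 ± 0.10, adjusted p = 0.00613). Nppb, brain natriuretic peptide, fell at the edge of the threshold (-1.82 ± 0.56, 0.0498; without sSAN replicate 1 or 4 or any RA replicate, 0.0716 to 0.11). In all 4 of 7 fell and 1 rose (2 fell without RA replicate 3). Of the renin-angiotensin and endothelin genes 3 of 7 rose and 2 fell. Agt, angiotensinogen, also made by fat, was at 211, 178, 74.02 and 53.6 CPM against 13.8, 16.4, 8.29 and 15.7 CPM (log2 change 3.27 ± 0.48, adjusted p = 0.00326), and Agtr1a, its receptor, at 16.7, 17.03, 8.68 and 14.5 CPM against 4.11, 2.70, 3.28 and 2.85 CPM (log2 change 2.15 ± 0.24, adjusted p = 0.00107). Agt was higher in the 59-day rats. Ace, the converting enzyme, rose less (0.62 ± 0.15, 0.0172; without RA replicate 2, 3 or 4, 0.0536 to 0.0576). The endothelin receptors Ednra (-0.87 ± 0.18, 0.0104) and Ednrb (-0.86 ± 0.20, 0.0154) fell by similar amounts.

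Nerve and glial genes rose. Of 10 Schwann cell and glia genes 9 rose and 0 fell. Sox10, the transcription factor of the glial lineage, was at 5.38, 9.86, 8.58 and 9.56 CPM against 2.05, 4.34, 2.60 and 2.62 CPM (log2 change 1.53 ± 0.27, adjusted p = 0.00544). S100b, a calcium-binding protein taken here as a glial marker, was at 114, 93.5, 24.2 and 39.1 CPM against 0.382, 1.06, 1.30 and 0.856 CPM (log2 change 6.24 ± 0.63, adjusted p = 0.00107). Within the sSAN, S100b was higher in both younger rats than in both 70-day rats. The fat-cell gene Adipoq had the same pattern, at 538, 500, 144 and 126 FPKM, whereas Sox10 was lowest in a younger rat. The parts of glia and fat in the S100b rise were not tested. In the 70-day rats alone 2 of the 10 were called.

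Neuronal transcripts were scarce, and 5 of 13 tested rose with 0 falling. Th, tyrosine hydroxylase, the rate-limiting enzyme of noradrenaline synthesis, had 0.720, 1.17, 1.09 and 0.961 CPM in the sSAN, 79 counts in all, and 0 counts in the RA, at least 26.9-fold higher. Ddc, the next enzyme of that synthesis, was at 49.2, 45.5, 98.3 and 100.03 CPM and 56.04, 56.9, 60.9 and 57.3 CPM (log2 change 0.35 ± 0.26, adjusted p = 0.361). Scg2, a vesicle protein, was at 0.678, 2.29, 1.78 and 2.26 CPM against 0.191, 0.0964, 0.145 and 0.0951 CPM (log2 change 3.68 ± 0.50, adjusted p = 0.00211). Gap43, a growth-cone protein, was at 2.16, 4.17, 2.23 and 4.18 CPM against 1.003, 1.06, 0.772 and 1.33 CPM (log2 change 1.62 ± 0.32, adjusted p = 0.008). Tubb3, neuronal tubulin, rose too (2.15 ± 0.39, 0.0059), and Uchl1, a neuronal ubiquitin hydrolase, was lost without RA replicate 2, 3 or 4 (1.64 ± 0.41, 0.0208; 0.052 to 0.0541). Cholinergic markers Chat, Slc18a3 and Slc5a7 did not pass the filter on low counts.

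Receptors for neurotrophic factors rose, while the ligands Bdnf, Ntf3 and Nrtn were not called. Ntrk2, the receptor of brain-derived neurotrophic factor, was at 54.8, 54.96, 34.7 and 41.9 CPM in the sSAN and 18.2, 22.9, 16.97 and 17.5 CPM in the RA (log2 change 1.32 ± 0.17, adjusted p = 0.00177). Ntrk3, the receptor of neurotrophin-3, was at 5.59, 14.4, 2.78 and 3.27 CPM against 0.191, 0.0964, 0 and 0.143 CPM (log2 change 5.85 ± 0.79, adjusted p = 0.00227). Ret, the receptor of the GDNF family, was at 4.45, 6.75, 2.78 and 4.61 CPM against 1.29, 1.45, 0.627 and 1.09 CPM (log2 change 2.07 ± 0.34, adjusted p = 0.00391). None of these overlapped between the regions. Its coreceptors Gfra2 (0.88 ± 0.20, 0.014) and Gfra3 (0.80 ± 0.22, 0.0303; without sSAN replicate 3 or 4 or any RA replicate, 0.056 to 0.0818) and the low-affinity receptor Ngfr (1.55 ± 0.36, 0.015) rose less. In all 6 of 10 rose and 0 fell. Of 14 axon guidance genes 4 rose and 2 fell, and leaving out sSAN replicate 1 or RA replicate 2 or 4 took the risen to 2, while the fallen were 1 without sSAN replicate 1 or any RA replicate.

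**Figure D4:**
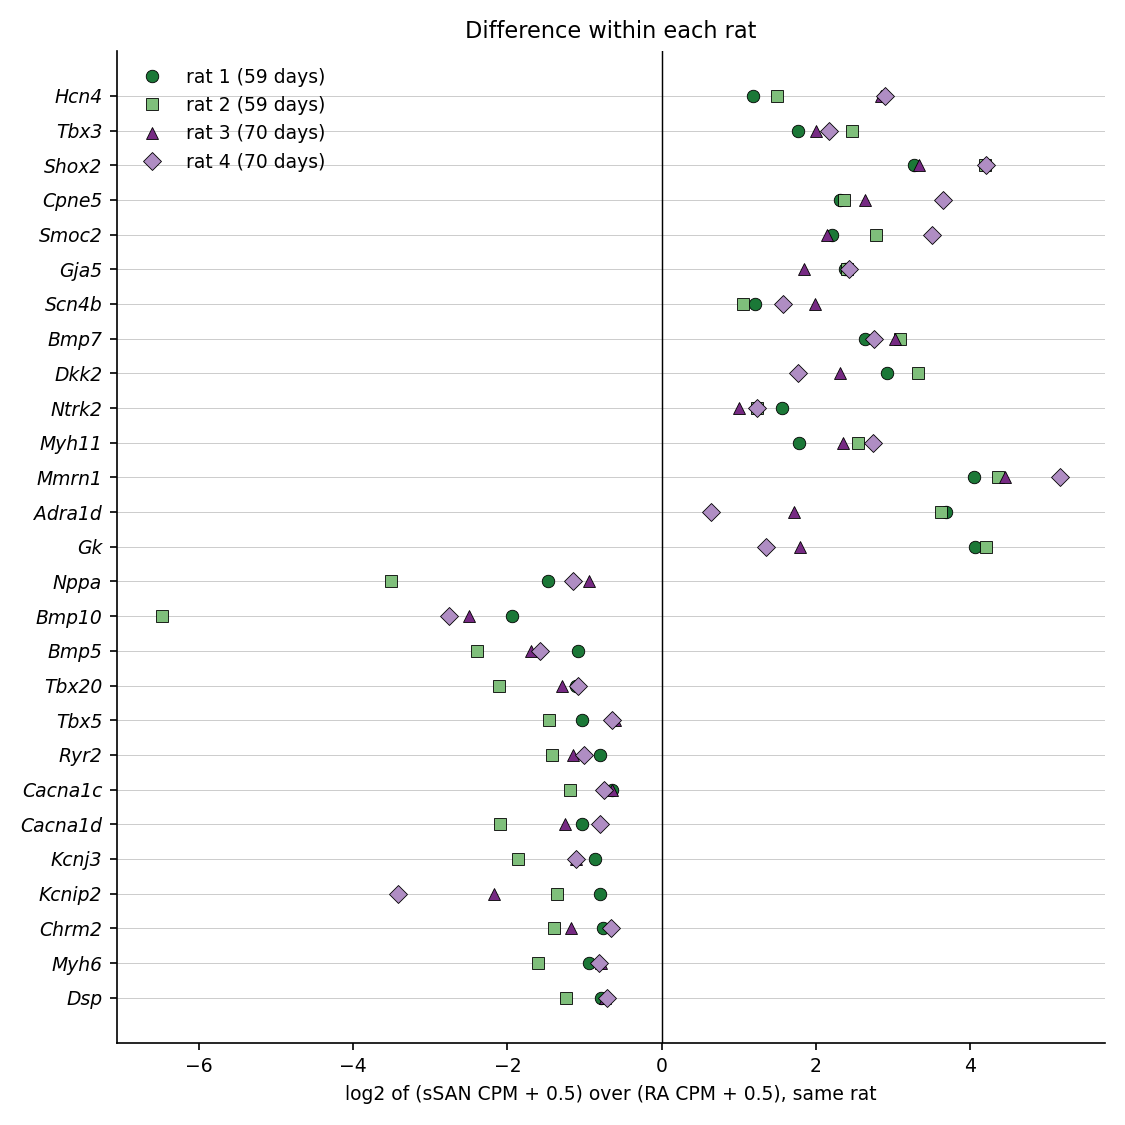
For 27 genes, each point is the log2 of (sSAN CPM + 0.5) over (RA CPM + 0.5) within 1 rat; green marks are the 59-day rats and purple marks the 70-day rats. All 4 rats lie on the same side of 0 for each gene shown, and rat 2 is the farthest from 0 for Bmp10 and Nppa.

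Among the BMP and TGF-beta genes, ligands changed in opposite directions. Bmp7 was at 3.81, 6.63, 3.97 and 3.51 CPM in the sSAN and 0.191, 0.337, 0.0482 and 0.0951 CPM in the RA (log2 change 4.70 ± 0.46, adjusted p = 0.000686), while Bmp5, Bmp6 and Bmp10 fell. The antagonist Fst, follistatin, rose. It was at 3.39, 4.99, 3.27 and 3.75 CPM against 0.669, 0.964, 0.868 and 0.856 CPM (log2 change 2.200 ± 0.24, adjusted p = 0.000926). The receptor Bmpr2 fell from 105, 108, 102 and 94.4 CPM to 82.8, 69.9, 61.9 and 53.9 CPM (log2 change -0.60 ± 0.13, adjusted p = 0.0123). So 4 of 22 rose and 7 fell. Tgfb1 rose (0.38 ± 0.11, 0.0414), lost without any 1 of 7 libraries, all but sSAN replicate 4 (0.0514 to 0.115), and Bmp6 (-0.998 ± 0.25, 0.0239) was lost without RA replicate 1 or 2 (0.0611 to 0.0631). The fallen count was 4, 2, 4 and 3 without RA replicates 1 to 4.

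WNT genes rose, 11 of 19, and 1 fell, with the secreted modulators Sfrp1, Sfrp2, Sfrp4, Sfrp5, Dkk2, Rspo1 and Rspo3 among the risen. Dkk2, an inhibitor, was at 6.95, 11.7, 8.73 and 5.77 CPM in the sSAN and 0.478, 0.723, 1.35 and 1.33 CPM in the RA (log2 change 3.10 ± 0.36, adjusted p = 0.00118). Sfrp5, a decoy receptor also known from fat, was at 11.4, 12.7, 3.87 and 15.3 CPM against 1.43, 1.59, 1.25 and 0.809 CPM (log2 change 3.10 ± 0.42, adjusted p = 0.00219), and Rspo1, an enhancer of WNT signalling, at 23.4, 15.3, 14.1 and 21.7 CPM against 9.94, 8.68, 7.76 and 10.7 CPM (log2 change 1.02 ± 0.19, adjusted p = 0.00609). None overlapped. Dkk3, common in atrial muscle, fell (-0.80 ± 0.23, 0.0344; without sSAN replicate 1 or any RA replicate, 0.0605 to 0.092). Without RA replicates 1 to 4 in turn the risen count was 6, 5, 5 and 5.

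Insulin-like growth factor binding proteins, enzymes of retinoic acid synthesis and Hox genes rose in part. Igfbp4 was at 239.7, 180.4, 178 and 177 CPM in the sSAN and 86.7, 80.4, 88.3 and 79.4 CPM in the RA (log2 change 1.22 ± 0.12, adjusted p = 0.000556), Igfbp6 rose to a like degree (1.49 ± 0.26, 0.00585), Igf1 rose (0.80 ± 0.18, 0.0128) and the receptor Igf1r fell from 21.4, 17.9, 18.2 and 14.9 CPM to 10.3, 7.87, 8.03 and 10.7 CPM (log2 change -0.96 ± 0.15, adjusted p = 0.00352). That made 3 of 9 higher and 1 lower, with 2 lower without sSAN replicate 3. Aldh1a3, an enzyme that makes retinoic acid, was at 44.3, 37.2, 29.4 and 46.2 CPM against 10.4, 8.14, 14.5 and 12.7 CPM (log2 change 1.79 ± 0.20, adjusted p = 0.0011), and the related Aldh1a2 rose less (0.71 ± 0.15, 0.0121). Rbp4, the retinol carrier made by fat and liver, was at 242, 249.9, 89.9 and 50.6 CPM against 1.19, 1.49, 0.868 and 1.24 CPM (log2 change 7.05 ± 0.64, adjusted p = 0.000697). Rarb, a retinoic acid receptor, fell by little (-0.41 ± 0.11, 0.0265; without sSAN replicate 1 or 4 or RA replicate 1 or 2, 0.0509 to 0.0806), so 3 of 8 rose and 1 fell. Hox genes encode position along the body axis, and Hoxb2 (2.32 ± 0.32), Hoxb3 (2.24 ± 0.33) and Hoxb4 (3.42 ± 0.51) all rose, at adjusted p of 0.00219, 0.00253 and 0.00283. Hoxb3 was even across the sSAN, at 3.64, 3.52, 3.62 and 3.46 CPM against 0.908, 0.386, 0.530 and 1.19 CPM. With the cofactor Meis2 (0.91 ± 0.13, 0.00227) they were 4 of 6 tested, and Meis1 was at 20.9 ± 5.09 CPM and 24.04 ± 2.82 CPM (SD, n = 4; log2 change -0.19 ± 0.17, adjusted p = 0.459).

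Contractile genes of smooth muscle rose. Tagln, which binds actin in smooth muscle, was at 80.5, 169, 168 and 193 CPM in the sSAN and 8.12, 8.0003, 8.25 and 7.04 CPM in the RA (log2 change 4.29 ± 0.27, adjusted p = 9.05e-05). Actg2, enteric smooth muscle actin, was at 8.18, 19.6, 25.1 and 22.7 CPM against 0.478, 0.337, 0.675 and 1.33 CPM (log2 change 4.74 ± 0.48, adjusted p = 0.000926). Myh11, smooth muscle myosin, was at 113, 199, 197 and 214 CPM against 32.6, 33.8, 38.3 and 31.7 CPM (log2 change 2.42 ± 0.19, adjusted p = 0.000309). The sSAN piece of rat 1 was the lowest of the 4 for all 3. Acta2 was at 111, 183, 234 and 235 CPM against 68.6, 16.4, 20.5 and 16.3 CPM (log2 change 2.66 ± 0.52, adjusted p = 0.00998), with the RA piece of rat 1 above the other 3. Of 10 tested 7 rose, while Myocd, the cofactor that switches on smooth muscle genes and is also active in cardiac muscle, fell from 56.8, 53.5, 54.9 and 55.8 CPM to 30.6, 22.1, 33.96 and 34.5 CPM (log2 change -0.85 ± 0.13, adjusted p = 0.00311), Synpo2 fell (-0.54 ± 0.13, 0.0152) and Smtn did not pass (-0.25 ± 0.16, 0.303).

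Connective tissue genes rose in 7 of 13 cases (fibroblast list) and 11 of 24 (extracellular matrix list), with 0 falling in either. The smallest adjusted p values in the comparison included several of these. Thbs4, thrombospondin 4, a tendon and vessel matrix protein, was at 11.1, 14.3, 7.49 and 11.9 CPM in the sSAN and 0.0955, 0.193, 0.193 and 0.0951 CPM in the RA (log2 change 6.24 ± 0.32, adjusted p = 2.93e-05). Fbln5, which assembles elastic fibres, was at 32.8, 37.3, 35.2 and 39.7 CPM against 13.5, 12.3, 14.3 and 14.8 CPM (log2 change 1.41 ± 0.10, adjusted p = 0.000137). Pi16, found in fibroblasts of the adventitia, was at 209, 205, 122 and 181 CPM against 27.2, 23.3, 21.3 and 25.6 CPM (log2 change 2.90 ± 0.18, adjusted p = 7.18e-05). In the LA, Fbln5 was at 32.3 ± 2.204 CPM and did not pass against the sSAN (log2 change 0.17, adjusted p = 0.205). Prdm8, a transcriptional repressor, and AABR07072853.5, which the table does not name further, were added here after their values were seen. Prdm8 was at 5.89, 7.10, 4.96 and 5.53 CPM against 0.0955, 0.0482, 0.145 and 0.0476 CPM (log2 change 6.04 ± 0.32, adjusted p = 2.93e-05). AABR07072853.5 was at 15.2, 23.4, 22.6 and 27.3 CPM against 0.382, 0.337, 0.530 and 0.238 CPM (log2 change 5.88 ± 0.27, adjusted p = 2.67e-05), and in the LA at 48.3 ± 10.9 CPM, above the sSAN. Without RA replicate 3 or 4 the fibroblast count was 4 of 13.

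Of 7 lymphatic endothelial genes 2 rose and 2 fell, of 7 arterial genes 2 rose and 0 fell, and of 11 general endothelial genes 1 rose and 1 fell. Over all genes 13.8% rose and 8.48% fell, and the general endothelial counts were near these shares. Mmrn1, multimerin 1, was at 11.02, 13.7, 16.8 and 19.2 CPM in the sSAN and 0.191, 0.193, 0.289 and 0.0476 CPM in the RA (log2 change 6.36 ± 0.34, adjusted p = 2.93e-05). Ccl21, the chemokine with which lymphatic vessels draw in immune cells, was at 14.9, 12.6, 41.8 and 32.05 CPM against 0, 0, 0 and 0.713 CPM (log2 change 7.10 ± 0.89, adjusted p = 0.0021). Both were also present in the LA, at 8.26 ± 4.79 CPM and 20.5 ± 11.8 CPM, and neither passed between the sSAN and the LA (log2 change 0.88, adjusted p = 0.114 and log2 change 0.31, adjusted p = 0.71). Prox1, the lymphatic master regulator, which heart muscle also expresses, fell from 47.3, 49.8, 51.5 and 59.6 CPM to 27.4, 17.7, 31.1 and 31.2 CPM (log2 change -0.94 ± 0.17, adjusted p = 0.00562), and Reln fell (-0.55 ± 0.16, 0.0347). The count of fallen lymphatic genes was not stable (1 without sSAN replicate 1, 2 or 4 or RA replicate 1, 2 or 4, when Reln was at adjusted p 0.0534 to 0.0966; it was lost without RA replicate 3 too). Sox17, an arterial endothelial factor, was at 14.8, 15.3, 16.7 and 11.6 CPM against 5.25, 4.67, 7.67 and 6.09 CPM (log2 change 1.31 ± 0.18, adjusted p = 0.00216), and with Gja5 made 2 of 7 arterial genes. Of 11 general endothelial genes Egfl7 rose (0.81 ± 0.11, 0.00184) and Emcn fell (-0.66 ± 0.20, 0.0411). The Emcn call was lost without any 1 library but sSAN replicate 3 (0.0615 to 0.11) and with replicate as a block (0.0578), and the count of risen genes was 2 without sSAN replicate 4.

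Fat and fuel genes held the largest fold changes. Of the 15 highest log2 fold changes among named genes, 10.19 to 14.10 (fitted values, which depend on the prior count where the RA had 0 to 3 counts), many belonged to genes of fat cells, such as Adipoq, Plin1, Cidec, Lep and Thrsp. Alb, Mpo, Gys2, Lgals12, Pck1, Acvr1c and Cckar were also among the 15 and were not sorted into fat and other genes. The highest was Ucp1, the uncoupling protein of brown fat, at 952, 1549.8, 262 and 156 CPM against 3 RA counts, a ratio of counts of 19559 (95% interval 6692 to 94846). Slc36a2, which carries amino acids in brown adipocytes, had 62.4, 118, 21.6 and 18.4 CPM and 0 counts in the RA, at least 1466-fold higher. The sSAN pieces of the 59-day rats held the most of either. Of 6 brown adipocyte genes 5 rose, of 19 fatty acid oxidation genes 17, of 13 fatty acid synthesis genes 10, of 17 citric acid cycle genes 8, of 21 nuclear oxidative phosphorylation genes 8 and of 13 mitochondrial genome genes 11, with 0 falling, whereas 2 of 18 glycolysis genes rose and 1 fell. The glycolysis counts were near the shares over all genes, 13.8% and 8.48%. They rested on single libraries: 1 rose without RA replicate 1 and 0 without RA replicate 2, and 0 fell without RA replicate 2, 2 without sSAN replicate 2 and 3 without sSAN replicate 3 or 4. With replicate as a block 1 rose and 3 fell, and with DESeq2 4 rose and 5 fell. Fatty acid oxidation was at 11, 9, 8 and 9 without sSAN replicate 1 and RA replicates 1, 2 and 3, and at 9 with replicate as a block. With Adipoq as a covariate, 580 genes were higher and 661 lower over all genes, and of 13 white adipocyte genes 0 were higher and 1 lower. Adipoq ran from 203 to 1020 CPM in the sSAN and from 0 to 0.478 CPM in the RA, with no overlap, so region and fat content cannot be told apart in these libraries. The citric acid cycle count was 1 to 3 without sSAN replicate 1 or any RA replicate and 13 without sSAN replicate 3, oxidative phosphorylation was 0 to 5 without sSAN replicate 1 or 2 or any RA replicate (4 with replicate as a block), and mitochondrial genome genes were 7, 6 and 6 without RA replicates 1, 2 and 4.

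Blood and immune markers gave a mixed picture. Mast cell genes rose in 4 of 5 cases, with Cpa3, carboxypeptidase A3, at 24.2, 20.96, 1.93 and 9.61 CPM in the sSAN and 2.48, 2.41, 1.40 and 0.856 CPM in the RA (log2 change 2.9999 ± 0.72, adjusted p = 0.0203; without RA replicate 3 or 4, 0.0558 to 0.0566) and Hdc, the enzyme that makes histamine, at 2.46, 3.64, 0.595 and 1.06 CPM against 0.191, 0.0964, 0 and 0 CPM (log2 change 4.65 ± 0.88, adjusted p = 0.00713). The sSAN piece of rat 3 was the lowest. Mcpt1l1, a mast cell protease, rose (3.14 ± 0.65, 0.0124), and Tpsb2, tryptase, was lost without sSAN replicate 1 or 2 or RA replicate 2, 3 or 4 (1.81 ± 0.50, 0.031; 0.0642 to 0.085). All 4 erythroid genes tested rose, among them Hbb, beta globin, at 141, 116, 90.6 and 153 CPM against 27.3, 11.6, 10.9 and 9.85 CPM (log2 change 3.08 ± 0.36, adjusted p = 0.00155), and Alas2, of haem synthesis in red cells, at 8.05, 6.22, 4.96 and 7.01 CPM against 1.34, 0.578, 0.434 and 0.285 CPM (log2 change 3.32 ± 0.41, adjusted p = 0.00155). Of 9 macrophage genes Aif1 (0.55 ± 0.16, 0.0395) and Cd14 (0.83 ± 0.25, 0.0431) rose, and 0 were called without sSAN replicate 1, 2 or 4 or RA replicate 1, 3 or 4, 1 without RA replicate 2 and 7 without sSAN replicate 3. Rag1, the recombinase of developing lymphocytes, stood out in the sSAN piece of rat 3 and the RA piece of rat 4, with 1.86, 1.88, 5.80 and 1.15 CPM and 0.239, 0.193, 0.0482 and 3.23 CPM (log2 change 1.53 ± 1.03, adjusted p = 0.328), while Arpp21, a neuronal and thymocyte phosphoprotein, rose (2.01 ± 0.41, 0.00971). Among 10 T cell, 2 B cell, 9 mesothelial, 3 cartilage and 1 airway genes 0 were called.

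The circadian clock (15 genes tested) and proliferation (10 genes) lists had 0 calls in either direction, with median log2 fold changes of -0.05 and -0.07. Of 12 immediate early genes, which respond to handling of tissue, Ier2 rose (0.48 ± 0.14, 0.0385), lost without sSAN replicate 1, 2 or 3 or RA replicate 2, 3 or 4 (0.0628 to 0.107).

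The difference between sSAN and RA was not the same in the 59-day and the 70-day rats for 304 of 14038 genes (2.17%). The signed log2 change was higher at 70 than at 59 days for 43 (0.306%) and lower for 261 (1.86%) (interaction of region and age, 2 rats per age). A lower value can be a smaller rise or a deeper fall. The sSAN pieces of these rats also differed in their mixture: summed white adipocyte CPM was 7911 and 10860 in the 59-day rats against 3574 and 3185 in the 70-day rats, and summed sarcomere CPM 31186 and 22415 against 42039 and 42407. The age groups also have different title endings, so age, title ending and the mixture of the pieces cannot be told apart. For Hcn4 the log2 change was 1.38 in the 59-day rats and 2.90 in the 70-day rats (difference 1.53, adjusted p = 0.00327). Its RA values lay between 17.4 and 21.4 CPM at both ages. Ddc (difference 0.99, adjusted p = 0.0111) and Vsnl1 (0.78, adjusted p = 0.0264) moved the same way. Lipid genes moved the other way, with Gk, glycerol kinase, at 252, 286, 54.7 and 42.8 CPM in the sSAN and 14.6, 14.99, 15.4 and 16.4 CPM in the RA (difference -2.58, adjusted p = 0.00199), Pdk4, which holds back glucose oxidation, at -2.19 (0.00199) and Gpam, of triglyceride synthesis, at -1.99 (0.00199). Adra1d (-3.04, 0.0148) and Igf1 (-0.96, 0.0179) were also smaller at 70 days.

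Compared with the inferior node, 0 of 14301 genes tested were higher in the sSAN and 1 (0.00699%) was lower at this sample size, although 693 and 705 had an unadjusted p under 0.05 and DESeq2 called 71 and 76. The gene was Coch, a matrix protein of the inner ear, at 0.219 ± 0.162 CPM in the sSAN and 16.3 ± 7.27 CPM in the iSAN (SD, n = 4; log2 fold change -6.25, adjusted p = 0.0470), and it was lost without any sSAN replicate or without iSAN replicate 1, 3 or 4. Without iSAN replicate 2 there were 4 lower genes. Hcn4 was at 56.2 ± 8.48 CPM in the iSAN, Tbx3 at 14.9 ± 3.38 CPM and Shox2 at 45.6 ± 1.69 CPM, ranges that overlap those of the sSAN. By the edgeR test, nothing above is therefore shown to be particular to the superior node. In the study's supplement, Tbx20 is among the genes that differ between the nodes, with a lower mean in the superior node.

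Against the LA, the other working atrium, 1670 of 14112 genes (11.8%) were higher in the sSAN and 1187 (8.41%) lower, together 20.2%, with the same sSAN libraries as in the comparison with the RA. The count was 1002, 968 and 1110 higher and 607, 625 and 715 lower without LA replicates 1, 2 and 4. Hcn4, at 5.43 ± 1.73 CPM in the LA, changed by 4.08 on the log2 scale there and 2.29 against the RA. Shox2 (log2 change 4.72, adjusted p = 0.000145) and Tbx3 (log2 change 2.56, adjusted p = 0.000502) rose against the LA too. Some genes that rose against the RA were not called or were much smaller against the LA. Smoc2 was at 19.9 ± 2.11 CPM in the LA (log2 change 0.54, adjusted p = 0.0282) and Kcnk1 at 2.07 ± 1.13 CPM (log2 change 0.39, adjusted p = 0.603). Ret was higher in the LA, at 8.65 ± 1.27 CPM (log2 change -0.89, adjusted p = 0.0317). Cacna1g, lower than in the RA, was at 111 ± 17.7 CPM in the LA (log2 change 0.15, adjusted p = 0.702), and Ednra at 86.8 ± 14.3 CPM (log2 change -0.20, adjusted p = 0.503). Kcnip2 was at 0.386, 0.496, 0.902 and 8.04 FPKM in the LA, against 0.944, 0.545, 0.820 and 1.20 FPKM in the sSAN. Whether the fold changes against the 2 atria differ was not tested.

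**Figure D5:**
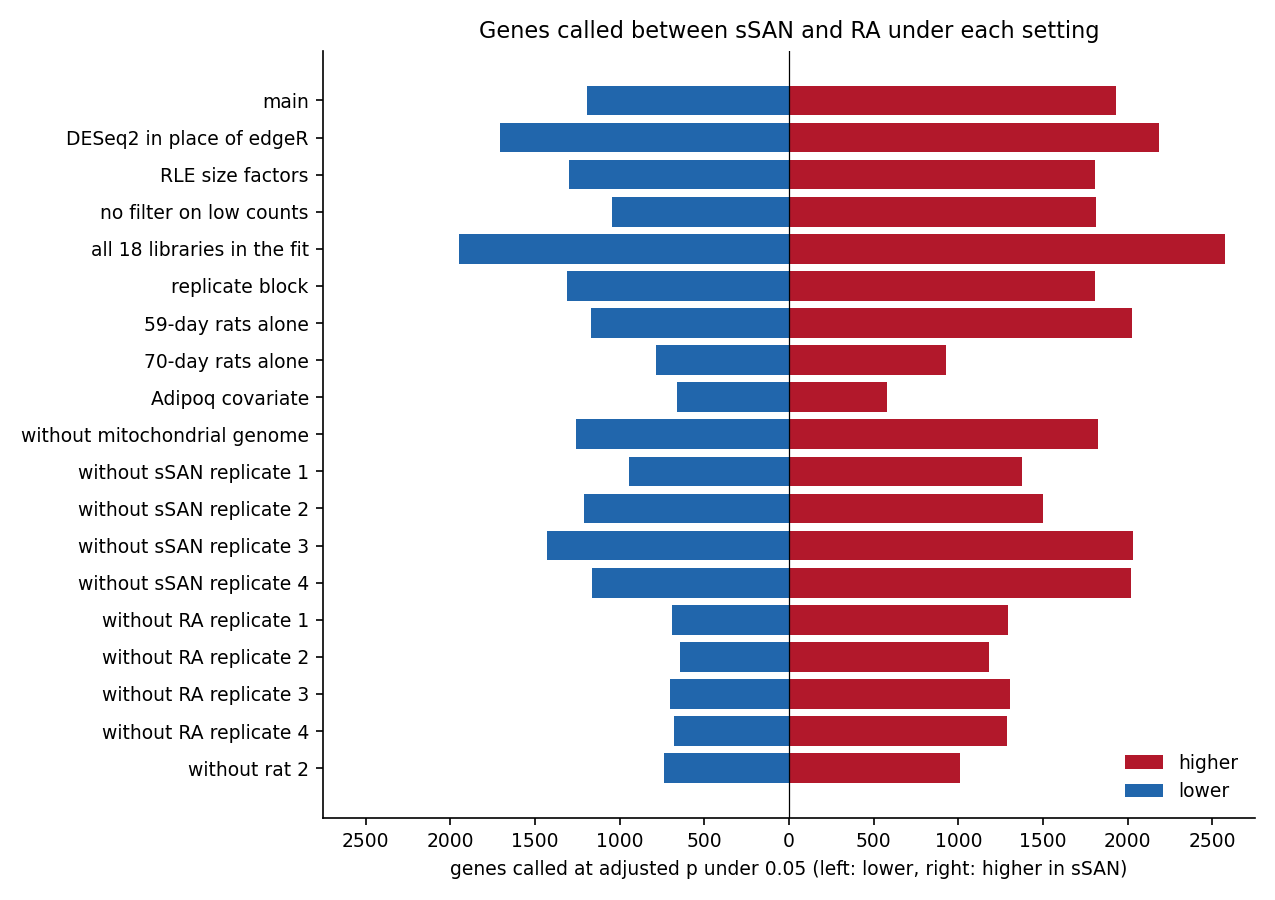
Bars give the number of genes called higher (right, red) and lower (left, blue) in the sSAN against the RA under the main setting and 18 others. Counts run from 580 to 2573 higher and from 642 to 1947 lower.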

How the data were processed

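RNA was taken from tissue of 4 rats kept in RNAlater and sequenced as 150-base read pairs. Per the labels and the study's methods, the authors filtered reads, aligned them with HISAT2 to a rat reference called release 98 and counted them per Ensembl gene with HTSeq 0.6.1. The assembly name is not given in the sources used here. In the deposited table, 32883 genes have raw counts, used in every test, and FPKM made by the authors (counts scaled by gene length and library size), used only to order levels between genes. A further 72 per-sample columns were not used, nor were the authors' group means, fold changes and p-values.

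Depth ran from 18548014 to 24252103 counts over the 8 libraries, so counting error matters mainly under 1 CPM. Intervals (95%) and floors (3 counts) cover counting error only. Counts were scaled by TMM, filtered with filterByExpr and tested with edgeR 4.0.16 (R 4.3.3, quasi-likelihood, robust, Benjamini-Hochberg over all genes) on the 8 libraries, with no block. The test was checked on simulated data. DESeq2 1.42.0, RLE factors, no filter, all 18 libraries, a replicate block, each age, an Adipoq covariate (log2 of CPM + 1), no mitochondrial genome and each library left out were alternatives. Within-rat log2 differences used CPM + 0.5. Figures used matplotlib 3.10.9 and exact permutation tests scipy 1.17.1.

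Replicates are separate rats. Libraries of 1 rat share a title ending. Deviations from the group means correlated at 0.145 to 0.195 within rats and at -0.146 to 0.0447 between rats (across 14038 genes, which are not independent), so the numbers pair the samples.

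Named genes were the 15 highest and 15 lowest fold changes meeting the stringent criteria, at 1 CPM or more and of 1 direction in all 4 rats (8 lower genes exist), per list the 6 or fewer members of lowest p, list members the study names, and all members of lists of up to 5. The members and lists were chosen with earlier results of these data known. Of 659 list entries 21 had no symbol in the table. Some listed genes enter the counts but are not reported here.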

Additional observations from a re-analysis of the deposited data

Results flagged for a closer look

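In 326 groups of 4 libraries (each gene named in the report, in the sSAN and in the RA) the highest or lowest library was set against the other 3, and 18 stood apart by Dixon's test, where chance alone marks about 1 group in 20. Adcy1 was at 8.81 CPM in sSAN replicate 2 and between 5.64 and 6.15 CPM in the other sSAN libraries. Bmp7 was at 6.63 CPM in sSAN replicate 2 and between 3.51 and 3.97 CPM in the other sSAN libraries. Cd14 was at 6.05 CPM in sSAN replicate 3 and between 13.4 and 14.8 CPM in the other sSAN libraries. Igfbp4 was at 240 CPM in sSAN replicate 1 and between 177 and 180 CPM in the other sSAN libraries. Irx5 was at 1.49 CPM in sSAN replicate 3 and between 0.336 and 0.411 CPM in the other sSAN libraries. Myh11 was at 113 CPM in sSAN replicate 1 and between 197 and 214 CPM in the other sSAN libraries. Rag1 was at 5.80 CPM in sSAN replicate 3 and between 1.15 and 1.88 CPM in the other sSAN libraries. Tbx3 was at 12.6 CPM in sSAN replicate 1 and between 20.5 and 20.8 CPM in the other sSAN libraries. Ace was at 35.02 CPM in RA replicate 1 and between 25.03 and 26.5 CPM in the other RA libraries. Acta2 was at 68.6 CPM in RA replicate 1 and between 16.3 and 20.5 CPM in the other RA libraries. Ank3 was at 145 CPM in RA replicate 2 and between 136 and 137 CPM in the other RA libraries. Ednra was at 110 CPM in RA replicate 3 and between 147 and 150 CPM in the other RA libraries. Hbb was at 27.3 CPM in RA replicate 1 and between 9.85 and 11.6 CPM in the other RA libraries. Rag1 was at 3.23 CPM in RA replicate 4 and between 0.0482 and 0.239 CPM in the other RA libraries. In genes at 0 in the other RA libraries, Ccl21 was at 0.713 CPM in RA replicate 4, Hcn3 was at 0.0476 CPM in RA replicate 4, Isl1 was at 0.0476 CPM in RA replicate 4, Ucp1 was at 0.145 CPM in RA replicate 2.

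For 8 named genes the log2 fold change of sSAN over RA differed between 70-day and 59-day rats (edgeR interaction test, Benjamini-Hochberg over all genes, 2 rats per age). Adra1d went from 4.34 at 59 days to 1.29 at 70 days, a difference of -3.04 (adjusted p = 0.0148). Ddc went from -0.24 at 59 days to 0.74 at 70 days, a difference of 0.99 (adjusted p = 0.0111). Gk went from 4.20 at 59 days to 1.61 at 70 days, a difference of -2.58 (adjusted p = 0.00199). Gpam went from 2.13 at 59 days to 0.12 at 70 days, a difference of -1.99 (adjusted p = 0.00199). Hcn4 went from 1.38 at 59 days to 2.90 at 70 days, a difference of 1.53 (adjusted p = 0.00327). Igf1 went from 1.26 at 59 days to 0.29 at 70 days, a difference of -0.96 (adjusted p = 0.0179). Pdk4 went from 2.72 at 59 days to 0.52 at 70 days, a difference of -2.19 (adjusted p = 0.00199). Vsnl1 went from -0.41 at 59 days to 0.36 at 70 days, a difference of 0.78 (adjusted p = 0.0264).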

How the results depend on the processing

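Of 138 called genes named in the report, all kept their call with DESeq2, RLE size factors or the mitochondrial genome left out, 7 lost it with no filter on low counts, 2 with all 18 libraries in the fit, 27 in the 59-day and 33 in the 70-day rats alone, and 5 to 23 without 1 library. The replicate block ended 6 calls, of which Cd14 and Pdk4 (adjusted p = 0.0591 and 0.0955) stand only here, and changed no other call of a named gene but those of Bmp4 and Nppa. Leaving out rat 2, chosen after seeing the data, ended 21. With the Adipoq covariate, which does not overlap between the regions, 17 kept their call, 58 lost it and 63 turned direction. In that fit the lower genes went from 7 to 0 among calcium channels and from 7 to 0 in the intercalated disc list, and the higher genes from 11 to 0 in the mitochondrial genome and from 9 to 0 in the Schwann cell and glia list. Without 1 library the counts against the RA were 1179 to 2033 higher and 642 to 1430 lower, and at the stringent threshold 125 to 477 and 1 to 18; against the LA they were 968 to 1807 and 607 to 1316, and against the iSAN 0 to 0 and 0 to 4. The mitochondrial difference was 10.3 to 15.6 points without 1 library, with p = 0.0571 (exact permutation test), and with the replicate block it was 13.4 points with p = 0.125 (exact permutation test of 4 pairs). With DESeq2 the counts that moved by over 1.5 times were 25 lower than in the RA at the stringent threshold, 71 higher than in the iSAN, 76 lower than in the iSAN, 643 called by age. With all 18 libraries in the fit the counts that moved by over 1.5 times were 1947 lower than in the RA, 23 lower than in the RA at the stringent threshold, 6 higher than in the iSAN, 14 lower than in the iSAN, 1983 lower than in the LA. With no filter on low counts the counts that moved by over 1.5 times were 496 called by age. With the replicate block the counts that moved by over 1.5 times were 5 lower than in the RA at the stringent threshold. Among 59-day rats the counts that moved by over 1.5 times were 31 lower than in the RA at the stringent threshold, 0 lower than in the iSAN. Among 70-day rats the counts that moved by over 1.5 times were 924 higher than in the RA, 786 lower than in the RA, 149 higher than in the RA at the stringent threshold, 5 lower than in the RA at the stringent threshold, 1 higher than in the iSAN, 2 lower than in the iSAN, 705 higher than in the LA, 533 lower than in the LA. With the Adipoq covariate the counts that moved by over 1.5 times were 580 higher than in the RA, 661 lower than in the RA, 43 higher than in the RA at the stringent threshold, 61 lower than in the RA at the stringent threshold, 0 lower than in the iSAN, 4 higher than in the LA, 0 lower than in the LA. Without rat 2 the counts that moved by over 1.5 times were 1010 higher than in the RA, 741 lower than in the RA, 189 higher than in the RA at the stringent threshold, 5 lower than in the RA at the stringent threshold, 2 lower than in the iSAN, 780 higher than in the LA, 627 lower than in the LA. Log2 fold changes that turned direction with the Adipoq covariate were Ace -0.48, Adra1d -1.65, Agt -3.71, Aldh1a2 -0.71, Ank3 0.57, Art4 1.87, Atp2a2 1.53, Bmp6 0.29, Cacna1g 1.39, Cacna1h 2.02, Cd14 -0.48, Cdh2 1.53, Chrnb4 -2.36, Corin 0.66, Cpa3 -4.78, Dkk3 1.74, Dsp 0.64, Edil3 2.22, Ednra 0.31, Ednrb 0.79, Emcn 0.71, Fgf12 0.65, Gata6 1.61, Gja1 0.10, Gk -6.84, Gpam -5.65, Hdc -3.43, Hmcn1 0.52, Hoxb2 -0.97, Ier2 -0.44, Igf1 -1.08, Igfbp6 -0.12, Irx5 1.60, Kcna5 -0.85, Kcnip2 1.45, Kcnj2 0.21, Kcnj3 0.24, Kcnj5 2.01, Mcpt1l1 -4.32, Mef2c 1.15, Meis1 2.14, Myh6 1.22, Myl7 3.56, Myocd 0.59, Neb 0.55, Nppb 1.22, Npr1 -0.24, Ntrk2 -0.85, Ntrk3 -1.52, Pam 1.37, Pde5a -1.43, Pdk4 -3.94, Pln 3.05, Prdm16 -2.78, Prox1 1.06, Rbp4 -1.07, Reln 0.93, Ret -0.55, Rgs4 -0.042, Rgs6 1.36, S100b -0.41, Sbk3 0.47, Scn3a -3.15, Sertm1 1.28, Sln 3.65, Synpo2 0.28, Tbx5 1.21, Tnni3 3.15, Tpsb2 -3.32. Vsnl1 was -0.41 with 59-day rats alone. Because Adipoq does not overlap between the regions, the fit with this covariate cannot separate region from fat content. Its values are therefore not region effects corrected for fat, and no conclusion is drawn from them. The cause of the other shifts was not tested, except that fewer libraries or genes enter some of the fits. At about 20 counts per CPM, genes under 1 CPM rest on few counts.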

Other observations

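Of 29 miRNA genes tested, as the deposited table annotates them, 7 rose and 2 fell between RA and sSAN. Of 175 lincRNA genes 6 rose and 7 fell, beside 1884 and 1172 of 13470 protein-coding genes. Of 12 mitochondrial tRNA genes 9 were higher and 0 lower.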
